A study of Mus musculus with 8 samples.

Results

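Cells make glutathione from cysteine, and 10 mouse genes that bring cysteine in, make it, join it into glutathione, keep glutathione reduced or break it down were followed here, out of 49315 genes listed. They were chosen by gene name, with earlier results of these data known, and each name matched 1 row of the deposited tables. The samples were immortalized mouse embryonic fibroblasts (MEFs) in 2 groups, 4 libraries labelled Opa1-/- and 4 labelled Opa1-/- + OPA1, in which OPA1 had been put back into knockout cells. Cells of both groups therefore carry the Opa1-/- genotype, and cells with an intact gene were not analysed here. The number of clones behind each group and the way OPA1 was put back are not stated in the labels. OPA1, a dynamin-like protein of mitochondria, joins their inner membranes and keeps cristae in shape. The study asked how its loss changes expression of genes tied to ferroptosis, a cell death driven by lipid peroxidation.

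Glutathione is a tripeptide of glutamate, cysteine and glycine, and cysteine is usually the scarce part. Cysteine enters fibroblasts mostly as its oxidized dimer cystine, through system xc-, or is made from methionine by transsulfuration. Glutathione peroxidase 4 uses glutathione to reduce lipid hydroperoxides, which is why a shortage of cystine can lead to ferroptosis. Slc7a11, Slc3a2, Cth and Chac1 are known targets of the stress-response transcription factor ATF4, and Slc7a11, Gclc, Gclm and Gsr of the oxidative-stress factor NRF2.

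The values are TPM (a level per transcript length and per library total), scaled between libraries, and differences are Opa1-/- minus Opa1-/- + OPA1 in log2(scaled TPM + 1), which understates the change of low genes. A gene was called at an adjusted p below 0.05 in limma-trend after Benjamini-Hochberg adjustment. The 14272 genes tested reached 1 TPM in 4 libraries or more. By that rule 6 of the 10 genes rose in Opa1-/- libraries (Slc7a11, Slc3a2, Cth, Gclc, Chac1 and Chac2), 1 fell (Gss), 2 did not pass (Gclm and Gsr) and 1 was too low to test (Cbs). Over all genes tested 33.0% were called, 16.2% higher and 16.9% lower, so being called is common in this comparison. The median difference of the 9 genes tested was 0.29, against -0.00 over all genes tested. Each of the 9 was at 1 TPM or more in every library, so none passed the filter through 1 group only. Libraries of the groups did not overlap for 8 of the 9, against 36.2% of all genes tested. In bulk RNA, fewer cells that express a gene and less RNA per cell cannot be told apart.

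**Figure D1:**
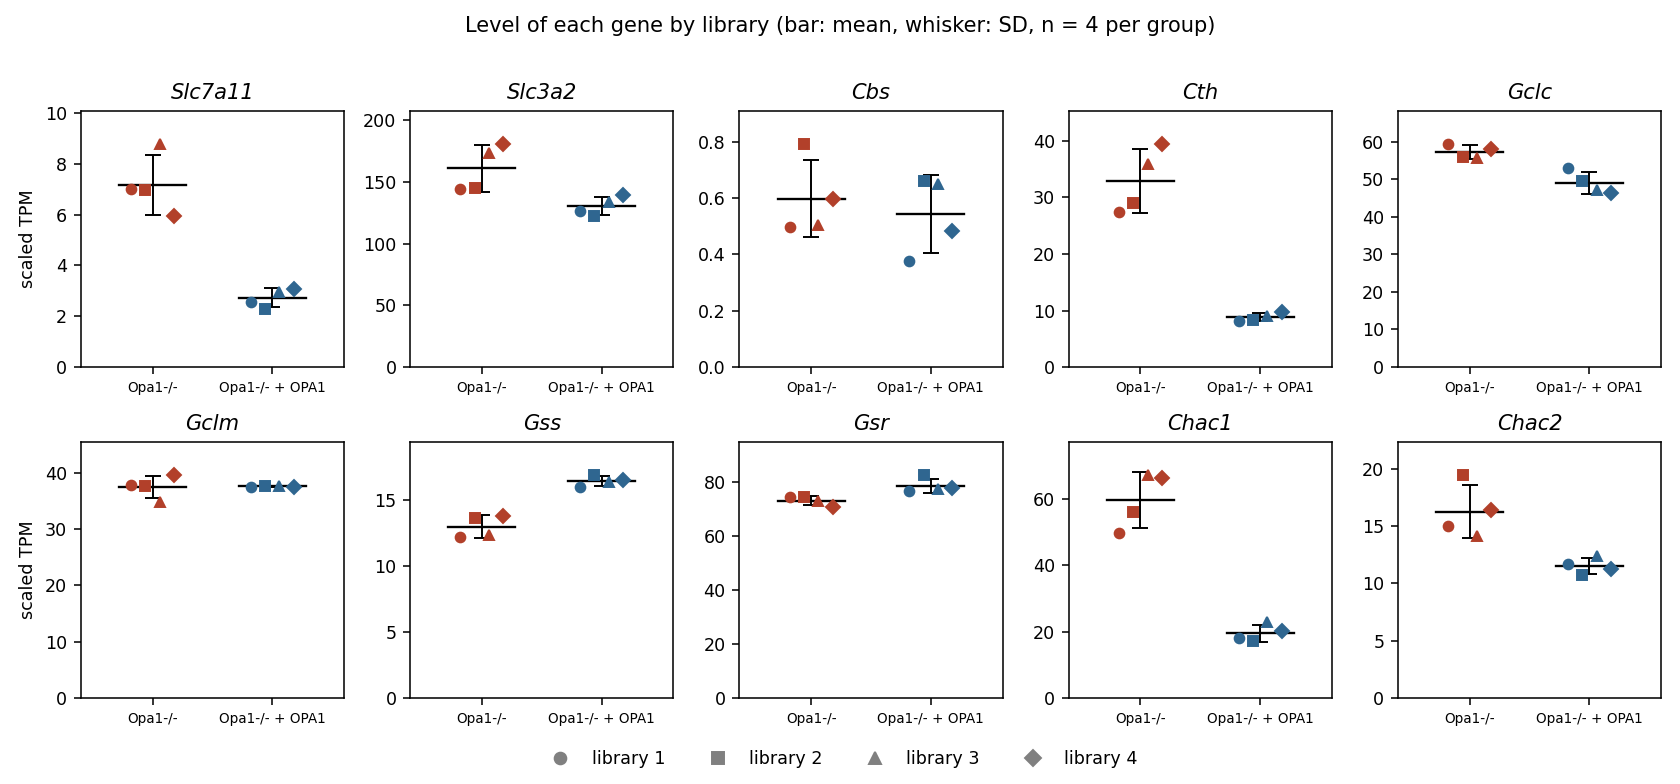
Scaled TPM of the 10 genes in each library, with Opa1-/- at the left and Opa1-/- + OPA1 at the right of every panel; markers show the library number, bars the mean and whiskers the SD (n = 4 per group), and each axis starts at 0. Slc7a11, Cth and Chac1 are far apart between groups, all Opa1-/- libraries of Gss and Gsr lie below the others, and Cbs and Gclm overlap.

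Depth was alike across libraries, with 52938504 to 56340855 assigned reads in Opa1-/- and 56387148 to 57819599 in Opa1-/- + OPA1 libraries, as recovered from the steps of the TPM values. Opa1 itself averaged 13.9 ± 1.06 TPM in Opa1-/- libraries and 14.8 ± 0.521 TPM in Opa1-/- + OPA1 libraries (SD, n = 4 each; difference -0.09, SE 0.06, adjusted p = 0.299). Its total did not separate the groups and so does not check the labels, and the reason was not tested. Of 10 fibroblast markers, 9 averaged 1 TPM or more, and Pdgfra, a platelet-derived growth factor receptor, was below 1 TPM in every library. Fibroblast markers summed to 2725 to 3038 TPM in Opa1-/- and 3180 to 3255 TPM in Opa1-/- + OPA1 libraries. Col1a1, Col1a2, Col5a1, Pdgfrb, S100a4 and Pdgfra were lower and Col3a1 higher in every Opa1-/- library than in any Opa1-/- + OPA1 library. Epithelial markers summed to 13.6 to 16.8 TPM in Opa1-/- and 7.89 to 9.97 TPM in Opa1-/- + OPA1 libraries, most of it Cdh1, while Epcam stayed at 0.528 TPM or less. Summed endothelial markers stayed at 0.494 TPM or less and summed muscle markers at 0.807 TPM or less. Neural markers summed to 15.5 to 17.5 TPM in Opa1-/- and 21.9 to 25.3 TPM in Opa1-/- + OPA1 libraries, most of it Tubb3. Leukocyte markers were Cd68 almost alone, with Ptprc at 0.0174 TPM or less, and pluripotency markers were Nanog almost alone. What part these markers have in the differences below was not tested. Separate cultures are not named in the labels, so the p-values speak only of library-to-library spread, which could be technical.

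The promoter windows of Slc7a11, Chac1 and Gclm, the only ones matched that hold either motif below, are shown side by side (RefSeq, GRCm38.p6, 250 bases before to 50 after the start, plus or minus as the gene runs). Slc7a11 and Chac1 were among the largest changes, and Gclm did not pass the test. Capitals mark the core of the amino acid response element that ATF4 can bind, TGATGNAA, or the core of the antioxidant response element that NRF2 can bind, TGACNNNGC, on either strand. The windows are chr3:50443564-50443863 on the minus strand for Slc7a11, chr2:119350992-119351291 on the plus strand for Chac1 and chr3:122245307-122245606 on the plus strand for Gclm.
Slc7a11: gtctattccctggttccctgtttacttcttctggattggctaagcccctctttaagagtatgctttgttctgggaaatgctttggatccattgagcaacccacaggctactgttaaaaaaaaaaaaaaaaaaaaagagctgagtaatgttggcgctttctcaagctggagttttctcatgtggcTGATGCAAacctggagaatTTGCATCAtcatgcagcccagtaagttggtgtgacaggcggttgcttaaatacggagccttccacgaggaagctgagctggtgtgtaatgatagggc
Chac1: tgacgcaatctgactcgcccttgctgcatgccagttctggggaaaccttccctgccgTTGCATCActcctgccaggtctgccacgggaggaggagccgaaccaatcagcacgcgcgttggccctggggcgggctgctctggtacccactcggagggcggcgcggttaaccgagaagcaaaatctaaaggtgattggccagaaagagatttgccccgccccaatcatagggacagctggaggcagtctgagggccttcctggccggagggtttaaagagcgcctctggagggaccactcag
Gclm: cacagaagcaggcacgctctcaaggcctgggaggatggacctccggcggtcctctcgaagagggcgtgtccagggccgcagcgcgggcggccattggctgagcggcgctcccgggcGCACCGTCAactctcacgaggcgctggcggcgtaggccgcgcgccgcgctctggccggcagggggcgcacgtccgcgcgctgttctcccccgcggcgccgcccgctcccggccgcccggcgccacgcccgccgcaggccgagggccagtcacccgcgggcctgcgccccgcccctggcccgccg
The Slc7a11 window holds TGATGNAA at 66 to 59 bases upstream of the start and again, on the opposite strand, at 47 to 40 bases upstream, so that the pair forms an inverted repeat. The Chac1 window holds it once, on the opposite strand, at 193 to 186 bases upstream. Among 32851 promoter windows of the same length, 3.97% hold TGATGNAA and 0.0700% hold it at least 2 times. The Gclm window holds TGACNNNGC once, on the opposite strand, at 134 to 126 bases upstream, as do 12.4% of all windows at least once. Windows were matched for 7 of the 10 genes, and those of Gss, Chac2, Cbs and Slc3a2 hold neither run of letters. Of these, Slc3a2 and Chac2 rose, Gss fell and Cbs was too low to test, so windows without a motif also belong to changed genes. The Slc3a2 window, at 8713848 to 8714147 of chromosome 19, lies inside the gene model, whose 5' end is at 8723369, so that end was not searched. Cth, Gclc and Gsr are the genes without a window. A match is a description of the sequence, not a bound site, and the motifs do not overlap each other in these windows.

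Slc7a11 and Slc3a2 encode the subunits of system xc-, which takes up cystine in exchange for glutamate. Slc7a11, the transporting light chain (ENSMUSG00000027737; GRCm38 chromosome 3, 49892526 to 50443614, minus strand), was at 7.02, 6.96, 8.77 and 5.93 TPM in Opa1-/- libraries 1 to 4, against 2.58, 2.28, 2.97 and 3.09 TPM in Opa1-/- + OPA1 libraries 1 to 4. Even the lowest Opa1-/- library was well above the highest reconstituted one. The means were 7.17 ± 1.18 and 2.73 ± 0.373 TPM (SD, n = 4 each), a ratio of 2.63 and a difference of 1.13 (SE 0.12, adjusted p = 0.000173). The gene is low per length, but its transcript models are long, so these levels rest on 1610 to 2247 reads per Opa1-/- library and 588 to 799 reads per Opa1-/- + OPA1 library. With a pseudocount of 0.1 TPM the difference was 1.36.

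Slc3a2, the heavy chain that carries Slc7a11 and several other light chains to the plasma membrane (ENSMUSG00000010095; chromosome 19, 8706882 to 8723369, minus strand), was the most abundant of the 10. It was at 144, 146, 174 and 181 TPM in Opa1-/- libraries 1 to 4, against 126, 123, 134 and 139 TPM in Opa1-/- + OPA1 libraries 1 to 4. The groups did not overlap, and libraries 3 and 4 were higher than libraries 1 and 2 in each group. Slc3a2 rose by 0.29 (SE 0.08, adjusted p = 0.0213), a ratio of means of 1.23. The call was lost on the deposited TPM without scaling (adjusted p = 0.0552), with no filter on low values (0.0542) and without both libraries numbered 3 (0.0884). It was also lost without Opa1-/- library 3 (0.05004, just above the threshold) or Opa1-/- + OPA1 library 1 (0.0588) or 2 (0.0618).

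The light chain thus changed by more than the heavy chain. Log2 ratios here and below were taken within each library on scaled TPM + 1, which shrinks ratios that involve a low gene. That of Slc7a11 to Slc3a2 was -4.18, -4.20, -4.16 and -4.71 in Opa1-/- libraries 1 to 4, against -5.15, -5.24, -5.09 and -5.10 in Opa1-/- + OPA1 libraries 1 to 4. The ratios did not overlap, and Opa1-/- library 4 lay between its own group and the reconstituted libraries. The difference of the ratios was 0.83 (two-sided exact permutation test over 70 regroupings, p = 0.0286 raw and adjusted over 5 ratios, the smallest value this design allows). That test takes the libraries as unpaired. As a fold on scaled TPM + 1, the gap between groups for Slc7a11 exceeded the whole range of Slc3a2. This ratio could therefore not overlap, and its p is no separate result. Within the 4 same-numbered pairs an exact test cannot go below 0.125, so neither this nor any of the other 4 ratios below passed in pairs (exact p = 0.125 for each). As plain TPM ratios, Slc7a11 was 0.0449 ± 0.00815 of Slc3a2 in Opa1-/- and 0.0208 ± 0.00174 in Opa1-/- + OPA1 libraries (SD, n = 4 each). Of 5 other light chains that pair with Slc3a2, 2 were tested, 1 fell and 1 did not pass (median -0.14). Slc7a5, the large neutral amino acid exchanger, averaged 112 ± 17.7 TPM in Opa1-/- and 99.2 ± 7.83 TPM in Opa1-/- + OPA1 libraries (adjusted p = 0.246). With the median difference of each chromosome removed, Slc7a5 rose by 0.35 (adjusted p = 0.0354). Slc7a6, an exchanger of cationic and neutral amino acids, fell to 38.6 ± 2.92 TPM in Opa1-/- libraries, against 52.7 ± 1.55 TPM in Opa1-/- + OPA1 libraries (-0.44, SE 0.06, adjusted p = 0.000552), and was at -0.26 with chromosome medians removed. Both genes lie on chromosome 8. Slc7a7 and Slc7a8 averaged below 1 TPM in both groups, and Slc7a10 is listed at 0 throughout.

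Transsulfuration joins homocysteine with serine by Cbs, cystathionine beta-synthase, and then splits cystathionine into cysteine by Cth, cystathionine gamma-lyase. Cth (ENSMUSG00000028179; chromosome 3, 157894248 to 157925077, minus strand) had the largest change of the 10. It was at 27.5, 29.0, 35.8 and 39.4 TPM in Opa1-/- libraries 1 to 4, against 8.07, 8.36, 9.04 and 9.66 TPM in Opa1-/- + OPA1 libraries 1 to 4. Every Opa1-/- library was far above every reconstituted library, and libraries 3 and 4 were the higher ones in each group. The ratio of means was 3.75 and the difference 1.78 (SE 0.11, 95% confidence interval 1.53 to 2.04, adjusted p = 1.75e-05).

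Cbs, in contrast, was barely expressed (ENSMUSG00000024039; chromosome 17, 31608894 to 31637238, minus strand). It was at 0.499, 0.792, 0.504 and 0.599 TPM in Opa1-/- libraries 1 to 4, against 0.375, 0.661, 0.651 and 0.483 TPM in Opa1-/- + OPA1 libraries 1 to 4. The groups overlapped, and these levels rest on 30 to 48 reads per Opa1-/- library and 24 to 41 reads per Opa1-/- + OPA1 library. The gene missed the filter, and with no filter its difference was 0.05 (SE 0.09, adjusted p = 0.781). The log2 ratio of Cth to Cbs, on scaled TPM + 1, averaged 4.40 ± 0.289 in Opa1-/- and 2.67 ± 0.151 in Opa1-/- + OPA1 libraries (SD, n = 4 each, difference 1.73, exact p = 0.0286 raw and adjusted). With Cbs below 1 TPM, this ratio mostly restates the change of Cth, and its p is no separate result. As plain TPM ratios, Cth was 57.2 ± 15.3 times Cbs in Opa1-/- and 17.0 ± 4.40 times Cbs in Opa1-/- + OPA1 libraries (SD, n = 4 each). The second enzyme of the pathway was thus the abundant one in both groups, and more so in Opa1-/- libraries.

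Glutamate-cysteine ligase makes the first bond of glutathione and limits its rate. Gclc, its catalytic subunit (ENSMUSG00000032350; chromosome 9, 77754535 to 77794485, plus strand), was at 59.3, 55.9, 55.7 and 58.0 TPM in Opa1-/- libraries 1 to 4, against 52.9, 49.5, 47.2 and 46.4 TPM in Opa1-/- + OPA1 libraries 1 to 4. The groups did not overlap, although the highest reconstituted library came close to the lowest Opa1-/- library. Gclc rose by 0.22 (SE 0.05, adjusted p = 0.00801), a ratio of means of 1.17. The median difference over 509 genes of chromosome 9 was 0.09, and with chromosome medians removed Gclc was at 0.13 (adjusted p = 0.0838). Gclm, the modifier subunit that raises the activity of Gclc (ENSMUSG00000028124; chromosome 3, 122245557 to 122270732, plus strand), was at 37.8, 37.7, 34.9 and 39.5 TPM in Opa1-/- libraries 1 to 4. Opa1-/- + OPA1 libraries 1 to 4 were within a narrow band at 37.5, 37.7, 37.7 and 37.4 TPM. The groups overlapped, with a difference of -0.00 (SE 0.04, adjusted p = 0.945) and a 95% confidence interval from -0.10 to 0.09. A short stretch of Gclm, 296 bases, overlaps Gm17494 on the opposite strand, which was at 1.07 TPM or less, and 244 bases overlap Gm6061 on the same strand, which is listed at 0.

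The log2 ratio of Gclc to Gclm was 0.60 ± 0.0580 in Opa1-/- and 0.37 ± 0.0846 in Opa1-/- + OPA1 libraries (SD, n = 4 each; difference 0.23, exact p = 0.0286 raw and adjusted). With chromosome medians removed that difference was 0.11 and did not pass (exact p = 0.114 raw and adjusted). Gss, glutathione synthetase, which adds glycine in the last step (ENSMUSG00000027610; chromosome 2, 155563181 to 155592810, minus strand), went the other way. It was at 12.2, 13.6, 12.3 and 13.8 TPM in Opa1-/- libraries 1 to 4, against 15.9, 16.8, 16.3 and 16.5 TPM in Opa1-/- + OPA1 libraries 1 to 4. All Opa1-/- libraries were below all reconstituted ones, and Gss fell by 0.32 (SE 0.05, adjusted p = 0.00214), a ratio of means of 0.791. Its exons share 395 bases with Acss2 and up to 385 bases with antisense transcripts, Gssos1 and Gssos2, on the opposite strand. These 3 genes were at 1.41 TPM or less in every library. No source says whether strand was used in counting, and without it reads of those stretches cannot be told apart. Of all words of 50 bases in Gss transcripts, 10.3% recur in other annotated genes. The log2 ratio of Gss to Gclc was -2.06 ± 0.105 in Opa1-/- and -1.52 ± 0.103 in Opa1-/- + OPA1 libraries (difference -0.54, exact p = 0.0286 raw and adjusted). Each of these genes alone separated the groups, in opposite directions, so this ratio could not overlap and its p is no separate result.

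Gsr, glutathione reductase, which returns oxidized glutathione to its reduced form with NADPH (ENSMUSG00000031584; chromosome 8, 33652523 to 33698163, plus strand), did not pass the test. It was at 74.5, 74.4, 72.9 and 70.8 TPM in Opa1-/- libraries 1 to 4, against 76.7, 82.5, 77.4 and 77.8 TPM in Opa1-/- + OPA1 libraries 1 to 4. The groups did not overlap, with a difference of -0.10 (SE 0.04, 95% confidence interval -0.19 to -0.02, adjusted p = 0.0641). The median over 524 genes of chromosome 8 was -0.18, and with chromosome medians removed Gsr was at 0.08 (adjusted p = 0.147), so its direction depends on that step.

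**Figure D2:**
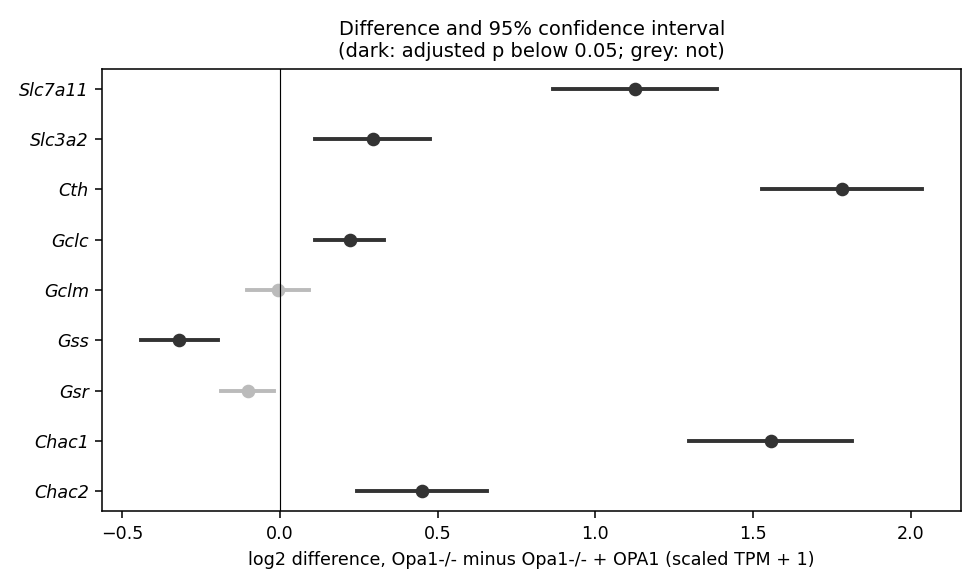
Log2 difference of the 9 genes tested, Opa1-/- minus Opa1-/- + OPA1, with 95% confidence intervals from limma-trend; dark points passed an adjusted p below 0.05 and grey ones did not. Cth at 1.78, Chac1 at 1.56 and Slc7a11 at 1.13 stand apart from the other genes, which lie between -0.32 and 0.45.

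Chac1 and Chac2 encode gamma-glutamylcyclotransferases of the cytosol that split reduced glutathione into 5-oxoproline and cysteinylglycine. Chac1, the stress-induced enzyme (ENSMUSG00000027313; chromosome 2, 119351229 to 119354381, plus strand), was at 49.6, 55.9, 67.0 and 66.1 TPM in Opa1-/- libraries 1 to 4, against 18.2, 17.1, 22.9 and 20.1 TPM in Opa1-/- + OPA1 libraries 1 to 4. Every Opa1-/- library was above every reconstituted library by a wide margin. The ratio of means was 3.04 and the difference 1.56 (SE 0.11, adjusted p = 3.70e-05). Chac2, its paralog (ENSMUSG00000020309; chromosome 11, 30976707 to 30986350, minus strand), was at 15.0, 19.4, 14.2 and 16.4 TPM in Opa1-/- libraries 1 to 4, against 11.7, 10.7, 12.4 and 11.3 TPM in Opa1-/- + OPA1 libraries 1 to 4. It also rose, by 0.45 (SE 0.09, adjusted p = 0.00544), a ratio of means of 1.41. No word of 50 bases in transcripts of either gene recurs in another annotated gene.

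The paralogs differed in how far they moved. The log2 ratio of Chac1 to Chac2 was 1.66, 1.48, 2.16 and 1.95 in Opa1-/- libraries 1 to 4, against 0.60, 0.62, 0.84 and 0.78 in Opa1-/- + OPA1 libraries 1 to 4. The difference was 1.10 (exact p = 0.0286 raw and adjusted). As a fold on scaled TPM + 1, the gap between groups for Chac1 exceeded the whole range of Chac2. This ratio could therefore not overlap, and its p is no separate result. In plain TPM, Chac1 was 3.74 ± 0.812 times Chac2 in Opa1-/- libraries and 1.69 ± 0.144 times Chac2 in Opa1-/- + OPA1 libraries (SD, n = 4 each). The synthesis genes Gclc, Gclm and Gss differed by 0.32 or less in either direction.

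**Figure D3:**
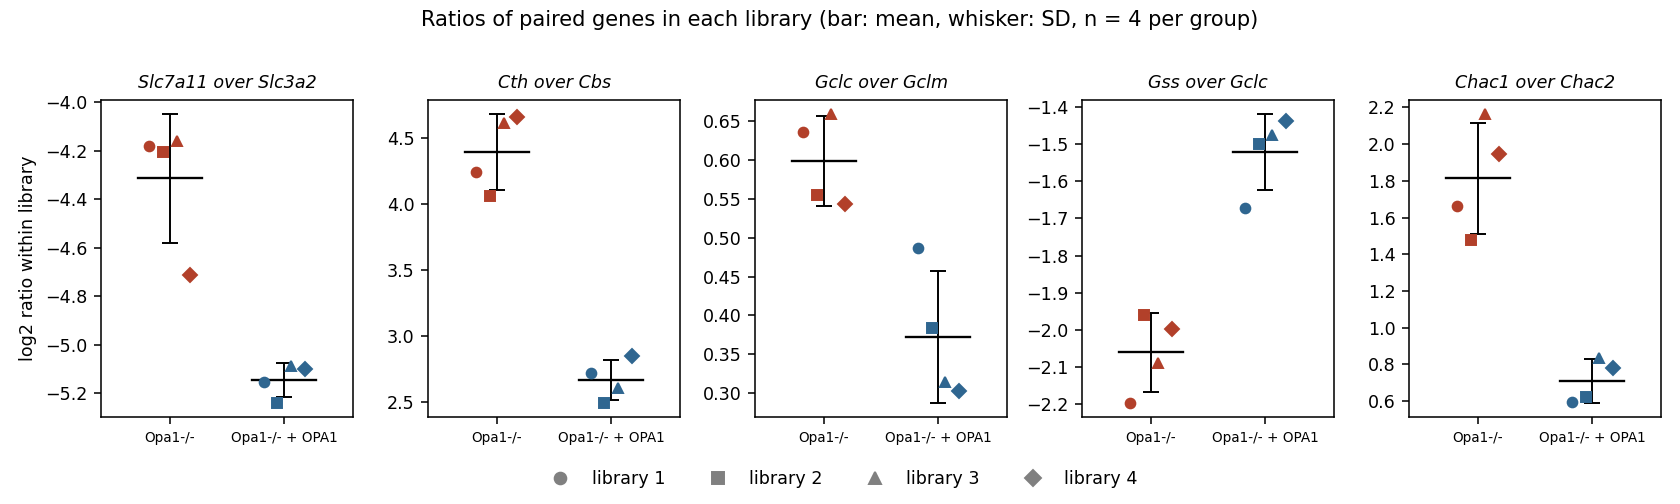
Log2 ratio of 5 pairs of genes within each library, with Opa1-/- at the left and Opa1-/- + OPA1 at the right; markers show the library number, bars the mean and whiskers the SD (n = 4 per group), and the axes do not start at 0. No pair overlaps between groups, and for Slc7a11 over Slc3a2 the Opa1-/- library 4, at -4.71, lies apart from the other 3.

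Since TPM is per length, levels of the 10 genes can be ranked. In Opa1-/- libraries the order of means was Slc3a2 (161), Gsr (73.2), Chac1 (59.6), Gclc (57.2), Gclm (37.5), Cth (32.9), Chac2 (16.2), Gss (13.0), Slc7a11 (7.17) and Cbs (0.598 TPM). Chac1 and Gclc overlapped there, as did Gclm and Cth, and each other neighbour was separated in all 4 libraries. In Opa1-/- + OPA1 libraries it was Slc3a2 (131), Gsr (78.6), Gclc (49.0), Gclm (37.6), Chac1 (19.6), Gss (16.4), Chac2 (11.5), Cth (8.78), Slc7a11 (2.73) and Cbs (0.543 TPM), with no overlap between neighbours. Cth, rank 8 in reconstituted libraries, was rank 6 in Opa1-/- libraries, and Chac1, rank 5 there, was rank 3. Slc7a11 remained rank 9 in both groups despite its change.

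Within the groups the genes did not vary as 1 set. Deviations from the group mean of Slc3a2 and of Cth followed each other closely (Pearson r 0.98 over 8 libraries) and followed those of Chac1 (0.85 and 0.82). They also followed those of Atf4, the mRNA of the transcription factor itself (0.92 for each, and 0.89 for Chac1), which was higher in libraries 3 and 4 of each group. For Slc7a11 the value with Atf4 was 0.30, and it rested on Opa1-/- library 4, the lowest of its group for Slc7a11 and the highest for Atf4 and Cth. Without that library it was 0.91 over 7 libraries, and with any other library left out it was 0.15 to 0.32. Only this pair of genes was examined with libraries left out. Gclc and Gsr ran the other way (-0.65 and -0.57 with Atf4), and Nfe2l2, encoding NRF2, did so most (-0.90). These correlations describe 8 libraries that share their scaling and numbering, and carry no test.

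**Figure D4:**
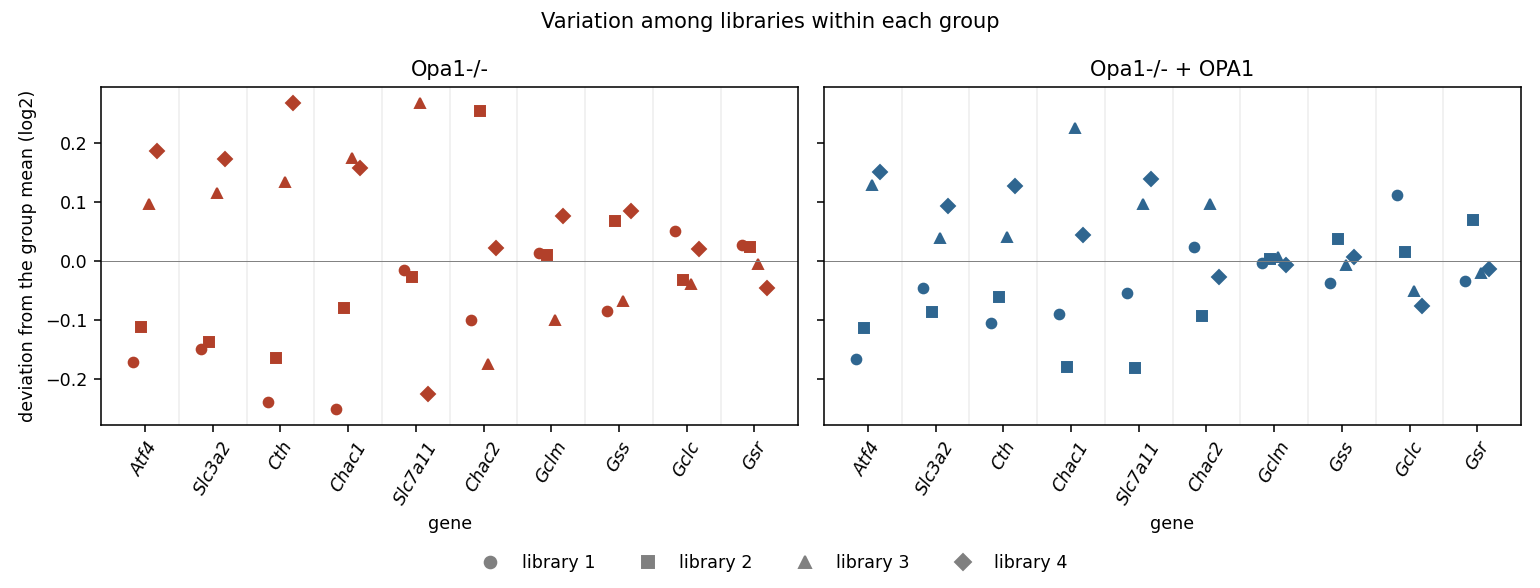
Deviation of each library from the mean of its own group in log2(scaled TPM + 1), for Atf4 and 9 of the genes, with Opa1-/- in the left panel and Opa1-/- + OPA1 in the right; markers show the library number. Libraries 3 and 4 lie above libraries 1 and 2 for Atf4, Slc3a2, Cth and Chac1 in both panels, while for Slc7a11 the Opa1-/- library 4 is the lowest.

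Over all 8 libraries, the tested genes of at least 5 TPM in the higher group whose log2 values correlated most with Cth were Slc7a3, a cationic amino acid transporter (Pearson r 0.996), Gstp1, a glutathione transferase (0.995), and Atf5, a stress-response transcription factor (0.995). For Chac1 they were Rab3il1 (0.998), Gstp1 (0.995) and Atf5 (0.994). For Slc7a11 they were Eif3c, a translation initiation subunit (0.998), Sorcs1, a sorting receptor (0.996), and Fbn2, fibrillin 2 (0.994). Most of such a correlation is the distance between the groups. Atf5 averaged 253 ± 28.8 TPM in Opa1-/- and 92.3 ± 12.7 TPM in Opa1-/- + OPA1 libraries (SD, n = 4 each; difference 1.45).

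A further 10 lists held 104 other genes around the pathway, of which 84 were tested, and 30 rose and 13 fell. These counts, and those of each list below, stand against 16.2% higher and 16.9% lower over all genes tested. The lists were chosen with earlier results of these data known, so standing above or below those shares is a description and no test. The list of transcription factors that act on these genes, which also holds their regulators Trib3 and Keap1, had 7 of 14 higher and 1 lower (median difference 0.26). Trib3, a pseudokinase that restrains ATF4, was at 33.7 to 54.2 TPM in Opa1-/- libraries, against 7.92 to 12.4 TPM in Opa1-/- + OPA1 libraries (2.02, SE 0.18, adjusted p = 7.86e-05). Nupr1, a stress-induced chromatin factor, rose by 1.23 (SE 0.10) and Ddit3, which encodes CHOP, by 0.53 (SE 0.12). Without both libraries numbered 3 this list had 4 higher, and Ddit3 was at an adjusted p of 0.0558. Atf4 was at 578, 602, 696 and 741 TPM in Opa1-/- libraries 1 to 4, against 484, 502, 594 and 603 TPM in Opa1-/- + OPA1 libraries 1 to 4 (0.26, SE 0.10, adjusted p = 0.0746). With the replicate number as a block, which compares libraries of the same number, Atf4 passed at adjusted p = 0.00304. It also passed in limma-voom on recovered reads (0.0436) and without Opa1-/- library 1 (0.0461). In the other 16 of 19 alternatives Atf4 did not pass (adjusted p up to 0.185).

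On the NRF2 side, Nfe2l2 was at 43.3, 46.9, 41.3 and 38.4 TPM in Opa1-/- libraries 1 to 4, against 38.7, 39.1, 34.6 and 32.8 TPM in Opa1-/- + OPA1 libraries 1 to 4. It did not pass (0.22, SE 0.08, adjusted p = 0.0517), and passed with the replicate block (adjusted p = 0.00835), upper-quartile scaling (0.0398), a mean of at least 5 TPM (0.0422), length and GC trends removed (0.0261), chromosome medians removed (0.0424) and limma-voom on recovered reads (0.0314). It also passed without Opa1-/- library 4 (0.0198) or Opa1-/- + OPA1 library 2 (0.0491). In the other 11 of 19 alternatives Nfe2l2 did not pass (adjusted p up to 0.149). Keap1, which targets NRF2 for breakdown, rose by 0.25 (SE 0.06, adjusted p = 0.0140), and was at adjusted p = 0.0698 without both libraries numbered 3 and at 0.0964 with chromosome medians removed. Bach1, a repressor at NRF2 sites, did not pass (11.9 ± 1.41 TPM in Opa1-/- and 13.2 ± 0.299 TPM in Opa1-/- + OPA1 libraries, adjusted p = 0.181).

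Upstream of cysteine, serine and glycine supply had 7 of 10 genes higher and 2 lower (median 0.50). Gldc, the decarboxylase of the glycine cleavage system, was at 16.9 ± 0.598 TPM in Opa1-/- and 6.15 ± 0.134 TPM in Opa1-/- + OPA1 libraries (difference 1.33, SE 0.05). Psph, the last enzyme of serine synthesis, rose by 1.31 (SE 0.10), and Slc1a4, a carrier of serine, alanine and cysteine, by 1.00 (SE 0.12). The list of cystine and cysteine carriers, which also holds Slc1a4, had 2 of 6 higher and 0 lower, the other being Slc1a5, a glutamine carrier (0.52, SE 0.07). Slc7a9 and Slc7a13, light chains of other cystine carriers, are listed at 0.

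The methionine cycle feeds homocysteine to Cbs. Its list, not all of whose genes are core enzymes of the cycle, had 2 of 10 higher and 3 lower (median -0.14), against 16.2% higher and 16.9% lower over all genes tested. Mat2a, which makes S-adenosylmethionine, fell to 239 ± 4.89 TPM in Opa1-/- libraries, against 283 ± 6.02 TPM in Opa1-/- + OPA1 libraries (-0.24, SE 0.03), and Ahcyl1 fell by 0.25 (SE 0.04). Nnmt, a methyltransferase that uses S-adenosylmethionine, rose at low levels (2.63 ± 0.315 TPM in Opa1-/- and 0.456 ± 0.195 TPM in Opa1-/- + OPA1 libraries, difference 1.33). With a pseudocount of 0.1 TPM its difference was 2.38. The count of higher genes in this list was 1 with no filter, with a mean of at least 5 TPM, and without Opa1-/- library 1 or 2 or Opa1-/- + OPA1 library 3 or 4. Genes of cysteine catabolism and sulfide handling had 4 of 9 higher and 0 lower (median 0.17). Sqor, the sulfide oxidase of mitochondria, was at 14.3 ± 0.691 TPM in Opa1-/- and 6.58 ± 0.223 TPM in Opa1-/- + OPA1 libraries (1.01, SE 0.05, adjusted p = 7.57e-06). Csad, which makes hypotaurine, rose by 0.45 (SE 0.06) and Ethe1, a persulfide dioxygenase, by 0.45 (SE 0.05).

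In the gamma-glutamyl cycle and glutathione breakdown, 2 of 6 genes tested were higher and 1 lower (median 0.10), and with the replicate block 1 was higher. Anpep, an aminopeptidase that can split cysteinylglycine, rose by 0.43 (SE 0.06), while Cndp2, a dipeptidase for the same substrate, fell by 0.18 (SE 0.05, adjusted p = 0.0206). Cndp2 kept its call in 14 of 19 alternatives and lost it without Opa1-/- library 3 (adjusted p = 0.0502) or Opa1-/- + OPA1 library 2 (0.0519). Oplah, which opens 5-oxoproline, rose by 0.29 (adjusted p = 0.0425), and was at adjusted p = 0.0659 with the replicate block. Oplah kept its call in 5 of 18 alternatives and lost it when any 1 library other than Opa1-/- + OPA1 library 4 was left out (adjusted p up to 0.110), and with a pseudocount of 0.1 TPM it was at 0.45. Ggt1, Ggt5, Ggt6 and Ggt7, which start glutathione breakdown outside the cell, were too low to test. Glutathione transport had 4 of 9 higher and 0 lower (median 0.14), among them Slc25a11, a mitochondrial carrier (0.24, SE 0.04), and 2 low genes, Cftr (0.82, SE 0.12) and Abcc3 (0.72, SE 0.11). With a pseudocount of 0.1 TPM these were at 1.48 and 1.52, and 2 of the list were higher where a mean of at least 5 TPM was required.

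Glutaredoxins and related enzymes had 1 of 8 higher and 1 lower (median 0.11), Esd at 0.38 (SE 0.08) and Glrx5, of iron-sulfur cluster assembly, at -0.24 (SE 0.07). With the replicate block 3 of them were higher. Without it, 16.2% of all genes tested were higher and 16.9% lower, so this list was near those shares. Glrx5 kept its call in 10 of 19 alternatives, was at adjusted p = 0.198 with chromosome medians removed, and lost the call without Opa1-/- library 3 (0.0682) or Opa1-/- + OPA1 library 1 (0.0662), 2 (0.0843) or 4 (0.0738). Of genes listed around NADPH supply for Gsr, not all of which make NADPH themselves, 4 of 11 fell and 2 rose (median -0.03). Me1, cytosolic malic enzyme, rose by 0.29 (SE 0.04), while Mthfd1, a folate enzyme, fell by 0.31 (SE 0.04) and Me2 fell by 0.30 (SE 0.05). With chromosome medians removed 2 of them were lower.

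**Figure D5:**
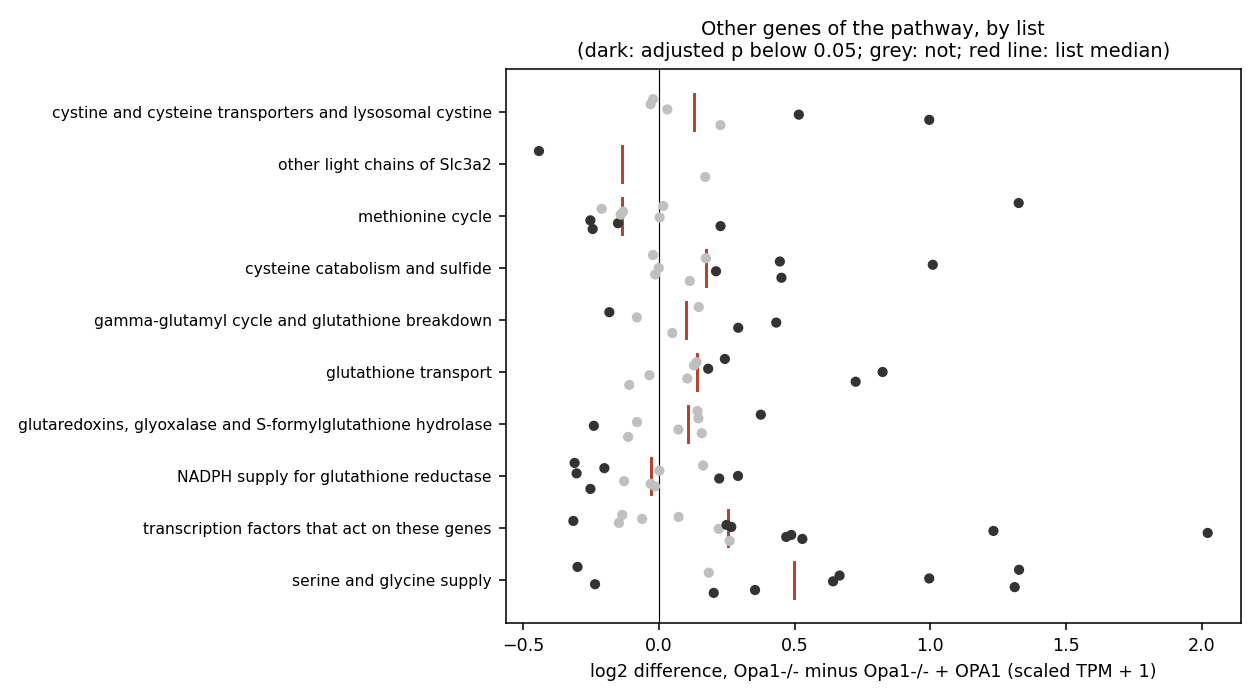
Log2 difference, Opa1-/- minus Opa1-/- + OPA1, of the tested genes in each of 10 pathway lists; dark points passed an adjusted p below 0.05, grey ones did not, and the red line is the list median. Medians run from -0.14 for the methionine cycle and for the light chains to 0.50 for serine and glycine supply.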

How the data were processed

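RNA sequencing of 8 libraries of immortalized mouse embryonic fibroblasts was analysed. RNeasy Plus RNA went into NEBNext Ultra II libraries, per the labels' protocols. Subread 1.5.2, featureCounts, STAR 2.5.2b and bcl2fastq 2.17 come from the submitters' processing notes, which list the builds GRCh38 and mm10 without saying what for. The authors deposited TPM values per gene, per the file headers. Strand of counting was not stated.

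Libraries were scaled to their mean log profile by trimmed mean log ratios, with trims of 0.3 for ratios and 0.05 for levels, using genes that reached 1 TPM in 4 libraries or more. log2(scaled TPM + 1) was fitted with limma 3.58.1 in R 4.3.3 with a mean-variance trend, without covariates, two-sided. The fit was also run on simulated data with independent noise in each library. Those data lack the shared deviation of same-numbered libraries, so the run cannot check the unpaired fit on that point. Log2 ratios within libraries, taken on scaled TPM + 1, were compared by exact permutation tests in scipy 1.17.1. The genes, lists and motifs were chosen with earlier results of these data known. From each list up to 3 called genes with the largest difference were named, with all genes of a list of 5 or fewer, Atf4, Nfe2l2, Keap1 and Bach1. Other genes (Gstp1, Slc7a9, Slc7a13, Ggt genes) came from the likeness rule or were named after their values were seen.

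Gene models were GENCODE M21 (GRCm38), which held 49056 of 49315 identifiers. Reads were recovered from TPM times exon length, and 94.6% to 94.8% of low values were whole within 0.05 of a read. For Cbs the exon length was rescaled by a factor of 2.24 until all 8 values were whole. Read numbers show counting precision only. Libraries with the same number deviated together (correlations 0.246, 0.225, 0.317 and 0.119 over 9416 genes for numbers 1 to 4). Libraries of different numbers ran from -0.320 to 0.114, so number 4 was barely above the highest of these. The numbers were taken to pair libraries in the replicate block and in the tests within pairs. The main fit and the main ratio tests did not pair them, and the labels name no shared batch. No libraries agreed within sampling noise (lowest chi-square per degree of freedom 5.32).

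Alternatives were other scalings, filters and pseudocounts, no trend, the replicate block, libraries left out, and exon length and GC trends removed (splines with 4 degrees of freedom). Chromosome medians removed and limma-voom on recovered reads were added after seeing the data, as were tests of the ratios within same-numbered pairs.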

Additional observations from a re-analysis of the deposited data

Results flagged for a closer look

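Among 32 groups of 4 libraries examined for a library far from the rest, 2 were flagged, and chance flags about 1 group in 20. The log2 ratio of Slc7a11 to Slc3a2 in Opa1-/- libraries was set apart by library 4, at -4.71 against -4.20 to -4.16 in the other 3, with a gap of 0.924 of the range. Without that library the difference of the ratios between the groups was 0.96, against 0.83 with it. Opa1 in Opa1-/- + OPA1 libraries was set apart by library 1, at 15.6 TPM against 14.5 to 14.6 TPM in the other 3, with a gap of 0.969 of the range.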

How the results depend on the processing

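Of the 10 genes, 6 rose and 1 fell, and under all alternatives 5 or 6 rose and 1 fell. Slc7a11, Cth, Chac1, Chac2 and Gss kept their direction and call in each alternative that tested them. With a mean of at least 5 TPM required, Slc7a11 was not tested. Slc3a2 was at 0.29 and not called on the deposited TPM and with no filter, at 0.27 without both libraries numbered 3, and ran from 0.24 to 0.35 with 1 library left out. Gclc was at 0.13 and not called with chromosome medians removed. Uncalled values changed sign for Gclm (0.0054 with upper-quartile scaling, 0.035 without both libraries numbered 3, 0.066 with length and GC trends removed, 0.017 with chromosome medians removed, -0.027 to 0.032 with 1 library left out) and Gsr (0.080 with chromosome medians removed). With the replicate block 6 rose and 1 fell, and over all genes 2335 were higher and 2412 lower, against 2305 and 2408. It changed no call of the 10 genes. Among named list genes it changed Atf4, Nfe2l2 and Oplah. Over all genes 1529 were lower on the deposited TPM and 1549 with chromosome medians removed. Chromosome medians removed also gave 2 lower genes in the list of transcription factors and regulators, 1 lower serine and glycine gene and 1 higher light chain. Beyond what a setting's own construction shows, the causes were not tested.

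With 1 library left out, an exact test of 3 against 4 cannot go below 0.0571, so the ratios could not pass. Their differences ran from 0.78 to 0.96 for Slc7a11 over Slc3a2, 1.64 to 1.84 for Cth over Cbs, 0.20 to 0.26 for Gclc over Gclm, -0.59 to -0.49 for Gss over Gclc and 0.99 to 1.22 for Chac1 over Chac2. Without both libraries numbered 3, where 0.1 is the smallest p, they were 0.80, 1.64, 0.19, -0.52 and 1.03. Within same-numbered pairs (the replicate block) they were 0.83, 1.73, 0.23, -0.54 and 1.10, and 0.125 is the smallest p. With chromosome medians removed Gclc over Gclm was at 0.11 and did not pass, while the other 4 ratios passed. Cbs, at 24 to 48 reads per library, had the fewest reads of the 10 genes.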
